A study of Mus musculus with 15 samples.

Results

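The kidney transcriptome of Ang II-infused mice given Qingda granule (QDG) was compared, gene by gene, with that of mice given Ang II alone. The comparison rested on 10 of the 15 mice in the series, 5 in the Ang II + QDG group and 5 in the Ang II group. A gene entered when its annotated transcripts summed to at least 1 FPKM in at least 5 of the 15 mice, which held for 12359 of 13923 genes with a summed value. FPKM counts fragments relative to the length of the transcript and to all fragments mapped in the library.

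All mice were wild-type males of the C57BL/6 strain, 8 weeks old when obtained. The Ang II and Ang II + QDG groups received Ang II at 500 ng/kg/min for 28 days from osmotic pumps under the skin, and the Control group received saline. QDG was given by gavage at 1.145 g/kg/day, while the other groups received water by the same route. The question was which genes differed when QDG was added to Ang II. The model is a subcutaneous infusion in 1 strain and 1 sex, and no group received QDG without Ang II, so a change that QDG makes in any mouse and a change that needs Ang II cannot be told apart.

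Ang II is the effector peptide of the renin-angiotensin system. It raises blood pressure through its type 1 receptor on vessels and tubules, and long infusion injures the kidney. QDG is a herbal preparation made from Gastrodia elata, Uncaria rhynchophylla, Scutellaria baicalensis and Nelumbo nucifera. Cells under load adjust the synthesis, folding and removal of proteins through stress responses, in which chaperones fold new proteins and the proteasome degrades spent ones.

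The values implied 70680000 to 79280000 mapped fragments per Ang II mouse and 68900000 to 76180000 per Ang II + QDG mouse. On the second principal component, which held 10.3% of the variance, 1 mouse of each group stood apart from the rest of it. Control mouse 2 was at 12.2 against −17.4 to −6.66 for the other Control mice, Ang II mouse 1 at 14.4 against −19.3 to −0.94, and Ang II + QDG mouse 1 at −0.53 against 13.7 to 26. The calls described next, 159 lower and 65 higher genes, were 139 and 50 without this Control mouse, 128 and 54 without this Ang II mouse and 202 and 52 without this Ang II + QDG mouse. The tissue label was examined with marker lists. Slc34a1, the phosphate transporter of the proximal tubule, had 2110 to 3060 FPKM in Ang II and 2000 to 2590 in Ang II + QDG, and Umod, the urinary glycoprotein of the thick ascending limb, had 695 to 1130 and 1010 to 1310. Fat, adrenal and skeletal muscle markers passed the filter for 4 of 16 genes, none of them a muscle marker. In whole kidney, fewer cells of a type and less RNA per cell cannot be told apart.

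At a Benjamini-Hochberg adjusted p under 0.05 by limma, 159 genes fell with QDG (1.29% of those tested) and 65 rose (0.526%), together 1.81%. The changes were mostly small: the median log2 fold change was −0.48 among the genes that fell and 0.42 among those that rose. Little overlap between the groups is built into these calls, which rest on the same values, and gives them no further support. The groups did not overlap for 141 of the 159 and 60 of the 65. Over all genes tested, every Ang II + QDG mouse was lower for 3.44% and higher for 1.56%. Another 10.4% and 6.01% are the shares of all genes with an unadjusted p under 0.05 in each direction, and these are the background for the gene lists. Of the genes that fell, 143 code for proteins, as do 51 of those that rose. The criterion that the study applied to transcripts, a fold of at least 2 with an unadjusted p under 0.05, held for 57 lower genes (0.461%) and 43 higher genes (0.348%), of which 11 and 5 also passed the adjusted threshold. When each mouse was left out in turn, 36 of the 159 and 4 of the 65 were called in all 15 fits, and the counts were lowest without Ang II mouse 2 (46 and 7). Among the genes named below as having fallen or risen, Nudt19, C2, mt-Co2 and Gm28661 kept their call in 1 of these 15 fits, Junb and Zfp646 in 2, and Anp32e, Slco1a1, Ahsa1, Eif6, D630029K05Rik and Tubb4b-ps1 in 3. The calls were sensitive to scaling: quantile normalization gave 97 lower and 97 higher genes, a split of 50% against 71% lower in the main fit.

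**Figure D1:**
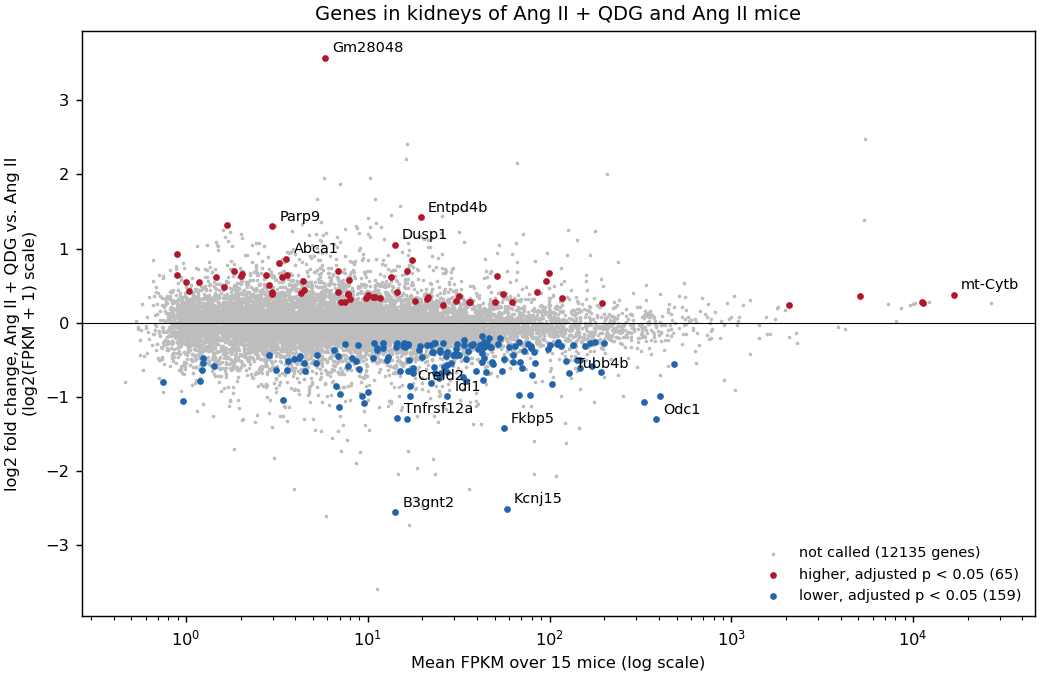
Log2 fold change of each of the 12359 genes between Ang II + QDG and Ang II (vertical axis, on the log2(FPKM + 1) scale) against its mean FPKM over 15 mice (horizontal axis, log scale). Blue points are the 159 genes that fell and red points the 65 that rose at an adjusted p under 0.05 by limma, and most of them lie within 1 log2 unit of 0.

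Tnfrsf12a had the smallest adjusted p among the genes that fell by more than 2-fold. It encodes Fn14, the receptor for the cytokine TWEAK, and lies on chromosome 17 at 23675445 to 23677468 (GRCm38, minus strand). The Ang II mice had 25, 31.1, 25.1, 23 and 16.4 FPKM and the Ang II + QDG mice 7.05, 9.72, 9.12, 8.25 and 12 FPKM. Every Ang II + QDG mouse was below every Ang II mouse and within or near the Control range of 8.40 to 11.6. The log2 fold change was −1.29 (standard error, SE, 0.16, adjusted p = 0.00265, limma).

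Fkbp5, a co-chaperone of the glucocorticoid receptor that glucocorticoids themselves induce, had 47.3, 80.1, 210, 64.4 and 99.0 FPKM in Ang II and 36.1, 26.2, 37.0, 31 and 30.8 in Ang II + QDG. The Ang II mice were spread more than 4-fold, with mouse 3 highest, while the Ang II + QDG mice lay close together and near the Control range of 31.9 to 41.0. The log2 fold change was −1.42 (SE 0.28, adjusted p = 0.0255, limma). Odc1, which makes the first polyamine from ornithine, had 497, 598, 699, 605 and 411 FPKM in Ang II and 271, 152, 189, 278 and 258 in Ang II + QDG. Its groups did not overlap, and the log2 fold change was −1.30 (SE 0.26, adjusted p = 0.0255). The Control mice spanned 175 to 477 FPKM for Odc1, a range that reaches into both groups.

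Other large decreases were in genes of several functions. Anp32e, a chaperone that removes the histone variant H2A.Z, fell with a log2 fold change of −1.30 (23.4 ± 5.24 to 8.97 ± 3.01 FPKM, SD, n = 5). Nudt19, a peroxisomal hydrolase of coenzyme A, had 339, 392, 885, 439 and 350 FPKM in Ang II and 200, 138, 230, 256 and 267 in Ang II + QDG (log2 fold change −1.07). Its adjusted p of 0.0487 by limma lay close to the threshold. Gm853, which has no role that can be named here, fell by 1.05 on the log2 scale. Slco1a1, a transporter of organic anions, fell by 1.08, and its groups overlapped, with 9.56 FPKM in 1 Ang II + QDG mouse and 7.44 in 1 Ang II mouse. Idi1 and the pseudogene Gm14303, which complete the 12 largest decreases together with B3gnt2, Kcnj15 and Atp6v0a4, are described further on.

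Among the genes that rose, Parp9 had one of the clearest separations. Its product, a member of the poly(ADP-ribose) polymerase family, acts with Dtx3l in interferon signalling. It had 1.96, 0.743, 2.40, 1.62 and 0.751 FPKM in Ang II and 4.70, 5.70, 3.90, 5.73 and 4.82 in Ang II + QDG. Control spanned 1.60 to 3.93 and overlapped both. The log2 fold change was 1.30 (SE 0.21, adjusted p = 0.0135, limma). Dtx3l itself rose by a smaller amount, from 2.02 ± 0.279 to 3.0 ± 0.349 FPKM (SD, n = 5), with a log2 fold change of 0.41.

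Abca1, the membrane transporter that loads cholesterol onto apolipoprotein A-I, had 2.30, 1.61, 1.27, 1.72 and 1.38 FPKM in Ang II and 5.49, 4.41, 2.61, 3.32 and 3.58 in Ang II + QDG. No Ang II + QDG mouse overlapped the Ang II mice, and the log2 fold change was 0.86 (SE 0.18, adjusted p = 0.0295, limma). Dusp1, a phosphatase that switches off MAP kinases, had 7.87, 7.66, 9.96, 8.37 and 4.58 FPKM in Ang II and 15.7, 22.2, 13.7, 9.72 and 26.7 in Ang II + QDG. Here 1 Ang II + QDG mouse lay inside the Ang II range (log2 fold change 1.05, adjusted p = 0.0401). When 1 mouse was left out, Abca1 stayed past the threshold in 9 of 15 fits and Dusp1 in 4.

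The other large increases were in genes of lower level or less known function. Sectm1b rose from 11.1 ± 2.83 to 20.5 ± 4.05 FPKM (log2 fold change 0.84), and Ngef, a guanine nucleotide exchange factor, from 12.2 ± 2.71 to 20.2 ± 2.91 (0.69). Etnppl, which breaks down phosphoethanolamine, rose from 4.74 ± 0.777 to 8.41 ± 1.73 FPKM (0.70). Zfp646, a zinc finger gene, rose by 0.80 on the log2 scale with an adjusted p of 0.0496 by limma. D6Wsu163e rose by 1.32, but its values of 2.96, 4.82, 4.63, 0.627 and 4.32 FPKM in Ang II + QDG include 1 mouse within the Ang II range of 0.489 to 0.767. The noncoding D630029K05Rik and Gm45819 rose by 0.67 and 0.70.

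**Figure D2:**
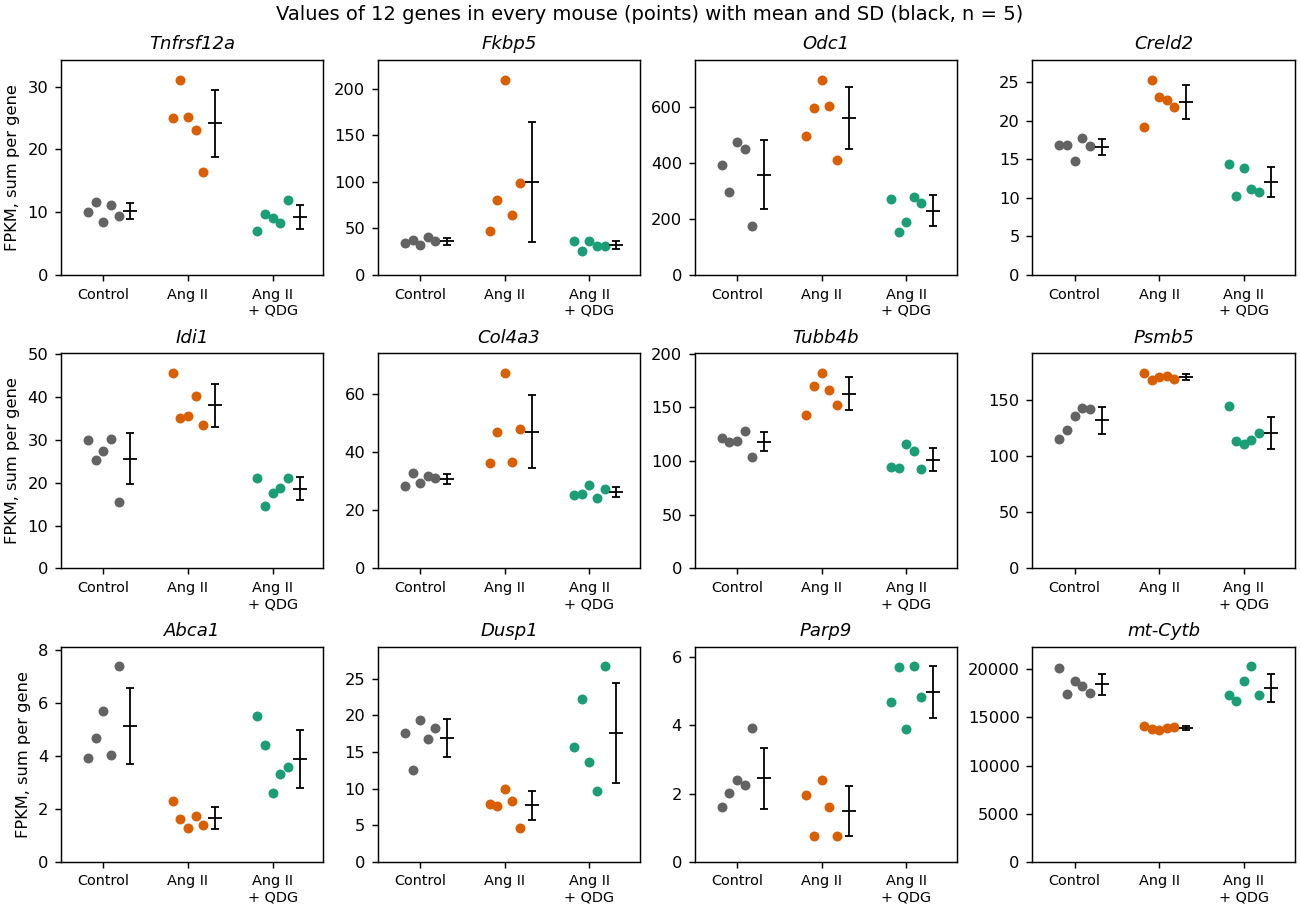
FPKM summed per gene (vertical axis, from 0) in each of 15 mice, by group (horizontal axis), for 12 genes chosen from those called. Points are mice and black bars the mean and SD of 5 mice. In 11 of the panels the points of Ang II and Ang II + QDG do not overlap, and Dusp1 is the exception.

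A pair of the largest changes belonged to 1 locus. B3gnt2, which makes poly-N-acetyllactosamine chains, lies on the minus strand of chromosome 11 at 22759738 to 22860961, and the annotated gene Gm28048, at 22834744 to 22982090 on the same strand, overlaps it. Of the 31-base stretches in Gm28048 transcripts, 67.3% also occur in B3gnt2 transcripts, so the reads of the shared part cannot be told apart. B3gnt2 had 17.2 to 21.5 FPKM in Ang II and 0.880, 1.13, 1.41, 1.28 and 20.6 in Ang II + QDG (log2 fold change −2.56, adjusted p = 0.0255, limma). Gm28048 mirrored it: at most 0.00920 FPKM in Ang II and 19.9, 23.1, 21.8, 19.9 and 0.0156 in Ang II + QDG (log2 fold change 3.57, adjusted p = 0.0295). The sum of both genes was 18.8, 17.2, 21.5, 19.6 and 18.9 FPKM in Ang II and 20.8, 24.2, 23.2, 21.2 and 20.6 in Ang II + QDG, a log2 fold change of 0.19. In 4 of 5 Ang II + QDG mice nearly all of the value thus stood under Gm28048 in place of B3gnt2, and the totals of the groups overlapped.

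Entpd4b, a near-identical copy of the nucleoside diphosphatase gene Entpd4, rose by 1.43 on the log2 scale. All of its 31-base stretches occur in Entpd4 transcripts as well. Summed with Entpd4, the values were 23.6, 18.8, 29.5, 8.12 and 15.2 FPKM in Ang II and 41.5, 47.9, 50.5, 29.1 and 54.2 in Ang II + QDG, a log2 fold change of 1.27. The total was therefore higher as well, with an overlap of 1 mouse in each group.

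In 3067 of the tested genes (24.8%), a transcript holding at least 20% of the gene's value spanned more than 10-fold among mice of the same group, with values under 0.1 set to 0.1, here called a switching transcript. These included 5 of the 24 largest changes, B3gnt2, Gm28048, Kcnj15, Atp6v0a4 and Slco1a1. Kcnj15, an inward rectifier potassium channel of tubule cells, had 64.2, 52.6, 76.5, 118 and 143 FPKM in Ang II and 15.3, 12.9, 12.3, 13.1 and 17.2 in Ang II + QDG (log2 fold change −2.51, adjusted p = 0.0222, limma). Its leading transcript had 0.981 to 1.61 FPKM in 3 Ang II mice but 78.6 and 93.1 in the others, and Control mice spanned 13.6 to 131 FPKM for the gene. Atp6v0a4, a proton pump subunit of intercalated cells, fell by 1.14 with a leading transcript that ranged from 0.609 to 11.3 FPKM within Ang II. Leaving out all such genes, an alternative added after the data were seen, left 21 lower and 19 higher genes at the fold criterion in place of 57 and 43. At the adjusted threshold, 226 lower and 90 higher genes were called without them.

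The endoplasmic reticulum stress genes encode the chaperones and regulators of the unfolded protein response, in which a load of misfolded protein in this compartment raises its own folding machinery. Of 28 members tested, 12 were lower with an unadjusted p under 0.05 and 0 were higher, and 25 had a negative log2 fold change (median −0.16 against −0.018 over all genes, and −0.10 after quantile normalization). Creld2, Dnajb11 and Manf fell at the adjusted threshold. Creld2, a secreted disulfide isomerase, had 19.2, 25.3, 23.1, 22.6 and 21.8 FPKM in Ang II and 14.4, 10.2, 13.8, 11.1 and 10.8 in Ang II + QDG. The 5 treated mice were all below the Control range of 14.8 to 17.7, and the log2 fold change was −0.85 (SE 0.097, adjusted p = 0.00265, limma).

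Dnajb11, a co-chaperone of the Hsp70 protein BiP, had 46.5 to 51.7 FPKM in Ang II and 35.5 to 41.4 in Ang II + QDG (log2 fold change −0.40, adjusted p = 0.0148, limma). Manf, a secreted protein of this compartment that protects cells under stress, had 23.9, 30.5, 24.0, 30.2 and 35.4 FPKM in Ang II and 20.4, 17.5, 17.7, 16 and 21.7 in Ang II + QDG (log2 fold change −0.59). Calr, the calcium-binding chaperone calreticulin and the most abundant member, had 302 to 392 FPKM in Ang II and 254 to 289 in Ang II + QDG, without overlap, and just missed the threshold (log2 fold change −0.35, adjusted p = 0.0506). Hspa5, which encodes BiP, had means of 145 and 108 FPKM, with overlapping groups and an adjusted p of 0.258. P4hb, protein disulfide isomerase, had a log2 fold change of −0.14 without overlap (adjusted p = 0.179).

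Promoters of several of these genes hold the endoplasmic reticulum stress element, and some are shown so that the sequence can be read beside the values. The element is a CCAAT box and a CCACG box with 9 bases of any kind between them, which the factors NF-Y and ATF6 are known to bind. On either strand of the 250 bases before the start, it occurred in 37 of 32851 RefSeq promoters (0.113%) and in 8 of the 25 list members with a promoter in that table. The 5 members with the element and an unadjusted p under 0.05 are printed below from RefSeq (GRCm38.p6), 5′ to 3′ along the gene with 15 bases on each side. Capitals mark the outer boxes, which read CGTGG and ATTGG where the element is on the other strand.
Creld2, chr15:88819505-88819553, plus strand: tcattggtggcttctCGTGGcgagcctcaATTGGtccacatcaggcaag
Calr, chr8:84847060-84847108, minus strand: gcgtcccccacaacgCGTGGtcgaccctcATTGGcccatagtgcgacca
Hspa5, chr2:34772010-34772058, plus strand: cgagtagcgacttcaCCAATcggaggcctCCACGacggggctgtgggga
Pdia6, chr12:17266476-17266524, plus strand: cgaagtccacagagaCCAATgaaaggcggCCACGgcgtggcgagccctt
Hsp90b1, chr10:86705623-86705671, minus strand: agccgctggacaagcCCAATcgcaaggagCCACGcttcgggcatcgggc
Hsp90b1 holds another copy of the element nearer its start, on the other strand.

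Over all genes, 9020 of the 12359 tested had a promoter in the table, and 12 of them (0.133%) held the element. Of these 12, 5 were lower and 0 higher with an unadjusted p under 0.05, and all 5 are the list members printed above. Their log2 fold changes were −0.85 for Creld2, −0.45 for Hspa5, −0.36 for Pdia6, −0.35 for Calr and −0.28 for Hsp90b1. Of the other 7 lower list members, Dnajb11, Sdf2l1, Asns, P4hb and Atf4 had no match in the window, and Manf and Hyou1 were not searched. Canx, Dnajc3 and Syvn1, which also hold it, had differences of −0.082, −0.077 and −0.18 with adjusted p values of 0.515 to 0.731 by limma. The match is a description of the sequence only.

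The cytosolic and mitochondrial chaperones, which fold proteins outside that compartment, gave a similar count: 13 of 32 lower and 0 higher with an unadjusted p under 0.05 (median log2 fold change −0.13, or −0.074 after quantile normalization). Besides Fkbp5, the genes that fell were Stip1, which links Hsp70 to Hsp90, the Hsp40 protein gene Dnaja1, the Hsp90 activator Ahsa1 and Hspe1, the mitochondrial Hsp10. Stip1 had 40.7, 40.0, 39.1, 43.0 and 42.3 FPKM in Ang II and 34.1, 32.5, 36.1, 32.0 and 31.3 in Ang II + QDG, a small and fully separated difference (log2 fold change −0.30, adjusted p = 0.0255, limma). Dnaja1 had 74.0 to 138 and 55.6 to 74.1 FPKM (log2 fold change −0.71, adjusted p = 0.0329). Hspa8, the constitutive Hsp70 and the most abundant member, had a log2 fold change of 0.25 in the other direction, which did not pass (adjusted p = 0.467), and Hsp90ab1 had −0.13 (adjusted p = 0.24).

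The proteasome, the protease complex that degrades ubiquitin-tagged proteins, had the largest share of lower members among the lists of at least 10 tested genes. Of 31 subunit genes, 17 were lower and 0 higher with an unadjusted p under 0.05, 28 had a negative log2 fold change, and in 10 the groups did not overlap. The differences were small, with a median of −0.16 that became −0.10 under quantile normalization, and 2 genes passed the adjusted threshold. Psmb5, the catalytic subunit with chymotrypsin-like activity, had 174, 168, 170, 171 and 169 FPKM in Ang II and 145, 113, 111, 114 and 121 in Ang II + QDG. The Ang II mice were nearly level and all above the Control range of 115 to 143 (log2 fold change −0.50, SE 0.076, adjusted p = 0.0131, limma). Psmd2, of the regulatory particle, had 55.3 to 59.5 and 48.0 to 51.9 FPKM (log2 fold change −0.21, adjusted p = 0.0255). Psmb6 and Psmb4 had −0.20 and −0.18 and did not pass (adjusted p = 0.059 and 0.0834).

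Genes of cholesterol and fatty acid synthesis, most of them targets of the SREBP factors, were lower in 13 of 39 and higher in 2 of 39 with an unadjusted p under 0.05 (median −0.17, or −0.11 after quantile normalization). Among the members past the adjusted threshold, Idi1, Fdps, Nsdhl and Acly fell, and Abca1, which exports cholesterol, rose. Idi1, an isomerase of the mevalonate pathway on chromosome 13 at 8885501 to 8892451, had 45.6, 35.2, 35.5, 40.3 and 33.5 FPKM in Ang II and 21.1, 14.6, 17.5, 18.8 and 21.2 in Ang II + QDG. The separation was complete, with a log2 fold change of −0.99 (SE 0.16, adjusted p = 0.0141, limma). The pseudogene Gm13502, of whose 31-base stretches 80.3% occur in Idi1, fell by 0.96, and the sum of both had a log2 fold change of −1.02. Fdps, the farnesyl diphosphate synthase that acts after Idi1, had 20.6 to 30.1 FPKM in Ang II and 12.2 to 17.9 in Ang II + QDG (log2 fold change −0.61).

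Nsdhl, a later enzyme of sterol synthesis, had 32.6 to 45.3 and 23.7 to 29.7 FPKM (log2 fold change −0.44). Acly, which supplies acetyl-CoA in the cytosol, had 57.8 to 96.8 and 48.3 to 53.9 FPKM (−0.48). None of these 4 genes overlapped between the groups. The abundant Hmgcs1, which makes HMG-CoA, had means of 166 and 120 FPKM with overlap and did not pass (log2 fold change −0.51, adjusted p = 0.234, limma), nor did Srebf2, the SREBP-2 gene itself (−0.25, adjusted p = 0.119). Of 43 genes of fatty acid oxidation and ketogenesis, 5 were higher and 1 lower with an unadjusted p under 0.05, and 0 passed the adjusted threshold. Acaa1b, a peroxisomal thiolase, came nearest, with 135 to 183 FPKM in Ang II and 188 to 300 in Ang II + QDG (log2 fold change 0.59, adjusted p = 0.0657).

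Respiratory chain genes of the nucleus and of the mitochondrial genome had medians on opposite sides of 0, both of which moved close to 0 under quantile normalization. The chain joins subunits from both genomes in complexes I, III and IV and in ATP synthase, while complex II comes from the nucleus alone. Among 77 nuclear genes, 29 were lower and 0 higher with an unadjusted p under 0.05, and 67 had a negative log2 fold change (median −0.13, or −0.049 after quantile normalization and −0.11 after median scaling). Complex I contributed 15 of its 36 genes, complex III 4 of 9, complex IV 4 of 11, ATP synthase 5 of 16 and complex II 0 of 4. Cycs, the electron carrier cytochrome c, had 144, 152, 162, 145 and 145 FPKM in Ang II and 119, 99.5, 95.2, 101 and 109 in Ang II + QDG (log2 fold change −0.51, adjusted p = 0.0135, limma). Atp5d, of the rotor of ATP synthase, had 215 to 237 and 172 to 194 FPKM (−0.27), and Ndufa8, of complex I, had 124 to 145 and 94.9 to 123 (−0.32). These 3 genes fell, and in each every Ang II + QDG mouse was below every Ang II mouse. The abundant Atp5b did not differ beyond its spread, with 1410 to 1520 and 1310 to 1460 FPKM (−0.035, adjusted p = 0.719).

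Of 11 genes tested from the mitochondrial genome, 6 were higher and 0 lower with an unadjusted p under 0.05 (median log2 fold change 0.25). mt-Cytb, the complex III subunit on this genome, had 14100, 13800, 13700, 13900 and 14000 FPKM in Ang II and 17300, 16700, 18800, 20300 and 17300 in Ang II + QDG. It rose by 0.38 on the log2 scale (SE 0.059, adjusted p = 0.0131, limma), and the Ang II mice agreed among themselves far more closely than the Ang II + QDG mice did. mt-Co2 of complex IV rose by 0.27 (9370 to 10100 against 10900 to 13100 FPKM, adjusted p = 0.0457), a call that most alternatives did not keep, and all of its 31-base stretches occur in the nuclear copy Gm28661, which rose by 0.27 as well. mt-Co1, mt-Co3 and mt-Nd1 were separated but did not pass (log2 fold changes 0.27, 0.25 and 0.28). The ribosomal RNA genes mt-Rnr1 and mt-Rnr2 had −0.031 and 0.0033, and mt-Nd6 had −0.15. The largest value, 2.48 for mt-Nd5, had a wide error and did not pass (SE 1.8, adjusted p = 0.54, limma). mt-Nd4 and mt-Atp8 did not pass the filter. All 31-base stretches of the nuclear copy Gm28439, which rose by 0.36, occur in mt-Nd4. Quantile normalization, which gives the highest-ranked genes the same values in every library, set the median of the 11 genes to 0.0012, while median scaling gave 0.26. The 24 nuclear genes that maintain and express mitochondrial DNA had 2 higher and 1 lower member with an unadjusted p under 0.05.

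**Figure D3:**
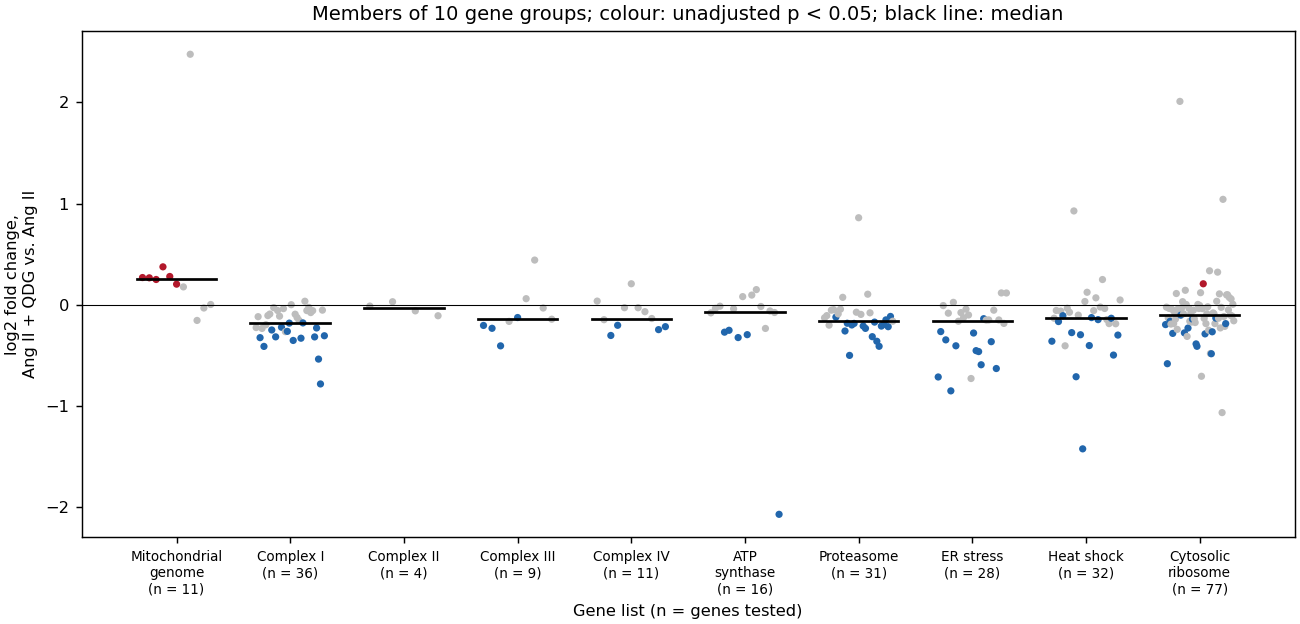
Log2 fold change between Ang II + QDG and Ang II (vertical axis) for the tested members of 10 gene groups (horizontal axis), 1 point per gene, coloured blue or red where the unadjusted p was under 0.05, with the median as a black line. The median is 0.25 for the mitochondrial genome, −0.18 for complex I, −0.16 for the proteasome and −0.16 for endoplasmic reticulum stress.

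Protein synthesis genes were mixed. Of 77 cytosolic ribosomal protein genes, 15 were lower and 1 higher with an unadjusted p under 0.05, and their median of −0.10 became −0.018 under quantile normalization. Rpl10a, of the large subunit, fell from 205 ± 8.86 to 137 ± 10.9 FPKM (SD, n = 5) with a log2 fold change of −0.58 (adjusted p = 0.0131, limma), and Rpl15 fell by 0.28. Rplp0, of the stalk, had a log2 fold change of 0.21 and did not pass. Among 35 translation factors, 9 were lower and 5 higher with an unadjusted p under 0.05, and the median of −0.016 changed sign under quantile normalization. Eif3b, a scaffold of initiation factor 3, had 47.6 to 50.1 and 38.6 to 41.8 FPKM (−0.26), and Eef1e1, a partner of tRNA synthetases, had 5.77 to 6.72 and 4.06 to 4.63 (−0.43). Eif4g2 and Eif6 also fell, by 0.83 and 0.30. The elongation factors Eef1a1 and Eef2, the most abundant members, had 0.20 and 0.083 and did not pass (adjusted p = 0.199 and 0.441).

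The cytoskeleton list held 13 of 31 lower and 0 higher members with an unadjusted p under 0.05, and its median of −0.20 was among the lowest of the lists (−0.13 after quantile normalization). Tubulins, the subunits of microtubules, led it. Tubb4b on chromosome 2 at 25222160 to 25224702 had 143, 170, 182, 166 and 152 FPKM in Ang II and 94.7, 93.8, 116, 109 and 92.8 in Ang II + QDG. The groups lay well apart (log2 fold change −0.68, SE 0.083, adjusted p = 0.00265, limma), and Control, at 104 to 128, overlapped the upper Ang II + QDG mice. Tubb2a had 28.1 to 36.1 and 15 to 25.3 FPKM (−0.75), and Tuba1c had 51.0 to 54.3 and 31.8 to 41.2 (−0.48). The actin gene Actg1 and the actin-severing Cfl1 had −0.33 and −0.20 and did not pass (adjusted p = 0.122 and 0.13).

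Type IV collagen, the network of basement membranes, accounted for the calls among 31 collagen and matrix genes. Of the list, 6 were lower and 2 higher with an unadjusted p under 0.05 (median −0.056). Without Ang II + QDG mouse 4, 29 were tested, with 4 lower and 0 higher (median −0.16). Col4a3, a chain of the glomerular basement membrane, had 36.3, 46.9, 67.1, 36.5 and 47.7 FPKM in Ang II and 25.3, 25.6, 28.8, 24.1 and 27.1 in Ang II + QDG (log2 fold change −0.78, adjusted p = 0.0148, limma). Col4a2, of the chain pair found in most basement membranes, had 38.8, 35.2, 41.6, 30.2 and 38.8 FPKM in Ang II and 25.4, 27.6, 24.1, 24.8 and 22.7 in Ang II + QDG (−0.54, adjusted p = 0.0148). Both genes fell without overlap between the groups. Its partner Col4a1 had the same log2 fold change of −0.54 but a larger error and did not pass (adjusted p = 0.0999). The small matrix proteoglycan gene Bgn and the protease inhibitor gene Timp3 had 0.053 and −0.0014. TGF-beta signaling genes had 4 lower and 2 higher of 21 with an unadjusted p under 0.05 and 0 at the adjusted threshold.

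Tubular injury markers beyond Tnfrsf12a did not pass the adjusted threshold. Of the 20 tested, 4 were lower, Tnfrsf12a among them, and 0 higher with an unadjusted p under 0.05. Cdkn1a, the cell cycle inhibitor p21, had 6.08, 7.26, 35.3, 5.13 and 7.10 FPKM in Ang II and 2.95, 3.86, 2.73, 1.59 and 2.62 in Ang II + QDG. The groups were separate, with Ang II mouse 3 far above the rest (log2 fold change −1.46, SE 0.41, adjusted p = 0.0834, limma). Spp1, which encodes osteopontin, had 56.1 to 136 and 86.3 to 138 FPKM (0.12, adjusted p = 0.92).

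The study measured proteins of the p53 and apoptosis pathways, and of their genes Cycs alone passed the adjusted threshold. Trp53 had 7.21 to 11.0 FPKM in Ang II and 5.53 to 11.3 in Ang II + QDG (log2 fold change −0.34, SE 0.24, adjusted p = 0.534, limma). Bax, which opens the mitochondrial outer membrane, had 25.1 to 37.3 and 25.1 to 33.1 FPKM (−0.18, adjusted p = 0.413). Bcl2, its inhibitor, had 1.68 to 2.21 and 1.83 to 2.51 FPKM (0.12, adjusted p = 0.509). The caspase gene Casp9 had a log2 fold change of −0.17 with an SE of 0.26, so the interval around it is wide. Of 28 p53 targets and regulators, 3 were lower and 1 higher with an unadjusted p under 0.05, and 0 passed the adjusted threshold. The share of lower members was near the 10.4% of all genes tested, and that of higher members was below 6.01%. The 3 lower genes were Aen, Tigar and the p53 target Cdkn1a, whose log2 fold change of −1.46 is given above with its values. Aen, a nuclease induced by p53, had 9.14 to 13.9 and 6.10 to 8.43 FPKM (−0.47, adjusted p = 0.0663). Among 38 apoptosis genes 3 were lower and 2 higher at the same unadjusted p, shares below those of all genes tested.

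In the renin-angiotensin list, 0 of 14 genes passed and 2 were higher with an unadjusted p under 0.05. Ren1, which encodes renin, had 24.7, 33.7, 17.1, 37.9 and 37.3 FPKM in Ang II and 19.5, 19.1, 28.2, 50.4 and 27.2 in Ang II + QDG, ranges that overlap widely (log2 fold change −0.095, adjusted p = 0.898, limma). Agtr1a, the type 1 receptor, had 18.4 to 22.5 and 16 to 20.5 FPKM (−0.15, adjusted p = 0.856). Agt, the precursor angiotensinogen, had 13.6 to 37.2 and 24.6 to 41.6 FPKM (0.55, adjusted p = 0.287). Among 28 genes of vasoactive peptides, nitric oxide and prostaglandins, Avpr1a, a vasopressin receptor, fell from 3.85 ± 1.01 to 2.09 ± 0.328 FPKM (SD, n = 5), and 2 were lower and 1 higher with an unadjusted p under 0.05.

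Signalling and stress lists held few calls. In the immediate early genes, 5 of 20 were lower and 2 higher with an unadjusted p under 0.05, and while Dusp1 rose, Junb, a subunit of the AP-1 factor, fell (9.03 to 11.0 against 5.91 to 10.1 FPKM, log2 fold change −0.48, adjusted p = 0.0438, limma). The MAPK cascade had 5 lower and 2 higher of 38. NRF2 targets and redox genes had 8 lower and 1 higher of 34, and Gsr, glutathione reductase, fell from 99.4 ± 12.1 to 75 ± 7.49 FPKM (SD, n = 5). Glycolysis had 4 lower and 0 higher of 14, and Pgam1, phosphoglycerate mutase, fell (195 to 198 FPKM across Ang II mice, 153 to 176 across Ang II + QDG mice, log2 fold change −0.26, adjusted p = 0.0131). Gluconeogenesis and fructose handling had 3 lower and 3 higher of 18, and Fbp2, a fructose bisphosphatase, rose from 10.4 ± 1.58 to 16.4 ± 0.773 FPKM. Hypoxia-inducible factor targets had 4 lower and 1 higher of 23, metallothionein and metal response genes 3 lower and 0 higher of 14, and circadian clock genes 2 lower and 1 higher of 20, with 0 at the adjusted threshold in each.

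The splicing regulators had 9 lower and 2 higher of 36 with an unadjusted p under 0.05. Srsf3, a splicing factor of the SR family, had 34.9 to 41.3 FPKM in Ang II and 30.3 to 34.0 in Ang II + QDG and fell by 0.30 on the log2 scale (adjusted p = 0.0248, limma). Ptbp1, a repressor of exon inclusion, had 51.8, 52.9, 42.2, 40.3 and 29.8 FPKM in Ang II and 70.3, 68.8, 61, 65.7 and 65.3 in Ang II + QDG and rose by 0.62 (adjusted p = 0.0329). Cell cycle and DNA replication genes had 1 higher and 0 lower of 15.

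Transport and metabolism of drugs and metabolites showed changes in both directions. Organic anion and cation transporters had 7 lower and 5 higher of 31, and Slco3a1 fell with Slco1a1, from 54.5 ± 5.15 to 34.5 ± 7.07 FPKM (SD, n = 5). Cytochromes P450 had 4 higher and 2 lower of 30, and Cyp2j6, an epoxygenase of arachidonic acid, rose (10 to 11.2 FPKM across Ang II mice, 12.3 to 15.3 across Ang II + QDG mice, log2 fold change 0.33, adjusted p = 0.0227, limma). Conjugation enzymes had 7 higher and 3 lower of 41, aryl hydrocarbon and xenobiotic receptors 1 of each among 15, and amino acid transporters 2 higher and 0 lower of 26, with 0 at the adjusted threshold. Klotho, vitamin D, calcium and phosphate genes had 4 lower and 0 higher of 18 with an unadjusted p under 0.05 and 0 that passed. Kl, which encodes the FGF23 co-receptor klotho, had 171 to 216 and 147 to 175 FPKM (−0.24, adjusted p = 0.121), and Pth1r, the parathyroid hormone receptor, had 251 to 310 and 209 to 243 (−0.27, adjusted p = 0.0802).

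Immune lists held few members past either threshold. Of 28 interferon-stimulated genes, 25 had a positive log2 fold change, 3 were higher and 0 lower with an unadjusted p under 0.05, and 0 passed. Ifit3, an antiviral protein gene, had 4.18, 2.61, 1.87, 4.04 and 3.68 FPKM in Ang II and 4.20, 8.0, 8.94, 4.38 and 8.10 in Ang II + QDG, barely separated (log2 fold change 0.83, adjusted p = 0.258, limma). MHC class I presentation genes had 2 higher and 0 lower of 15, inflammatory signaling genes 2 of each among 27, and complement and acute phase genes 2 higher and 0 lower of 21. C2, a complement protease, rose (16.6 to 20.8 FPKM across Ang II mice, 22.5 to 25 across Ang II + QDG mice, log2 fold change 0.33, adjusted p = 0.0494).

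Leukocyte markers were higher on balance, most of all in 1 mouse. All 10 tested of 24 had a positive log2 fold change (median 0.36), 1 with an unadjusted p under 0.05. Their summed level was 56.5, 45.4, 36.6, 39.6 and 39.5 FPKM in Ang II and 52.2, 68.9, 45.2, 184 and 41.2 in Ang II + QDG, where mouse 4 stands apart. Lyz2, the macrophage lysozyme, had 58.0 FPKM in that mouse and 12.6 to 20.3 in the other Ang II + QDG mice. The T and B cell markers Cd3e, Cd3d, Cd4, Cd8a, Cd79a and Ms4a1 had no transcript listed in all 15 files. Without mouse 4, 9 of the 10 leukocyte markers still had a positive log2 fold change, and the median was 0.22 for these markers, 0.20 for the interferon-stimulated genes and 0.052 for complement (0.12 and 0.18 with it for the last 2). The part of leukocytes in these lists was not tested. Erythroid genes had 2 higher and 0 lower of 6, with summed levels of 1120 to 1940 and 1560 to 2820 FPKM. Of the fat, adrenal and skeletal muscle markers, 4 were tested, the fat genes Adipoq, Cfd and Fabp4 and the adrenal gene Star. Of these, 0 had an unadjusted p under 0.05. Their sums reached 233 FPKM in Ang II mouse 1 and 98.1 in Ang II + QDG mouse 5, against 27.9 to 60.2 in the other 8 mice. The muscle markers had no transcript listed in all 15 files.

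Markers of the kidney's own cell types gave 0 calls at the adjusted threshold. The thick ascending limb, which reabsorbs salt in the loop of Henle, had 4 of 11 higher and 0 lower with an unadjusted p under 0.05 (median 0.29). Its Umod had 1030, 695, 1130, 983 and 785 FPKM in Ang II and 1010, 1280, 1310, 1270 and 1010 in Ang II + QDG (log2 fold change 0.36, adjusted p = 0.18, limma), and Kcnj1, the ROMK channel, had 0.24. Proximal tubule genes had 3 higher and 2 lower of 24, and 13 of them had a negative log2 fold change (median −0.028, which turned to 0.061 under quantile normalization). Their summed level was 12900 to 16400 FPKM in Ang II and 15300 to 19400 in Ang II + QDG, but without Kap, a kidney gene known to respond to androgen, the sums were 11000 to 12300 and 10000 to 12000. Kap itself had 1960, 1560, 4110, 3670 and 2090 FPKM in Ang II and 3730, 7400, 9150, 8250 and 5670 in Ang II + QDG, with overlap, and did not pass (log2 fold change 1.39, adjusted p = 0.134, limma). Principal cell, sodium channel and mineralocorticoid response genes had 2 higher and 1 lower of 14, distal convoluted and connecting tubule genes 1 lower of 11 (median −0.24), and podocyte genes 1 lower of 10. Intercalated cell and endothelial lists had 0 in either direction, and smooth muscle, mesangium and pericyte genes 1 higher of 13.

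**Figure D4:**
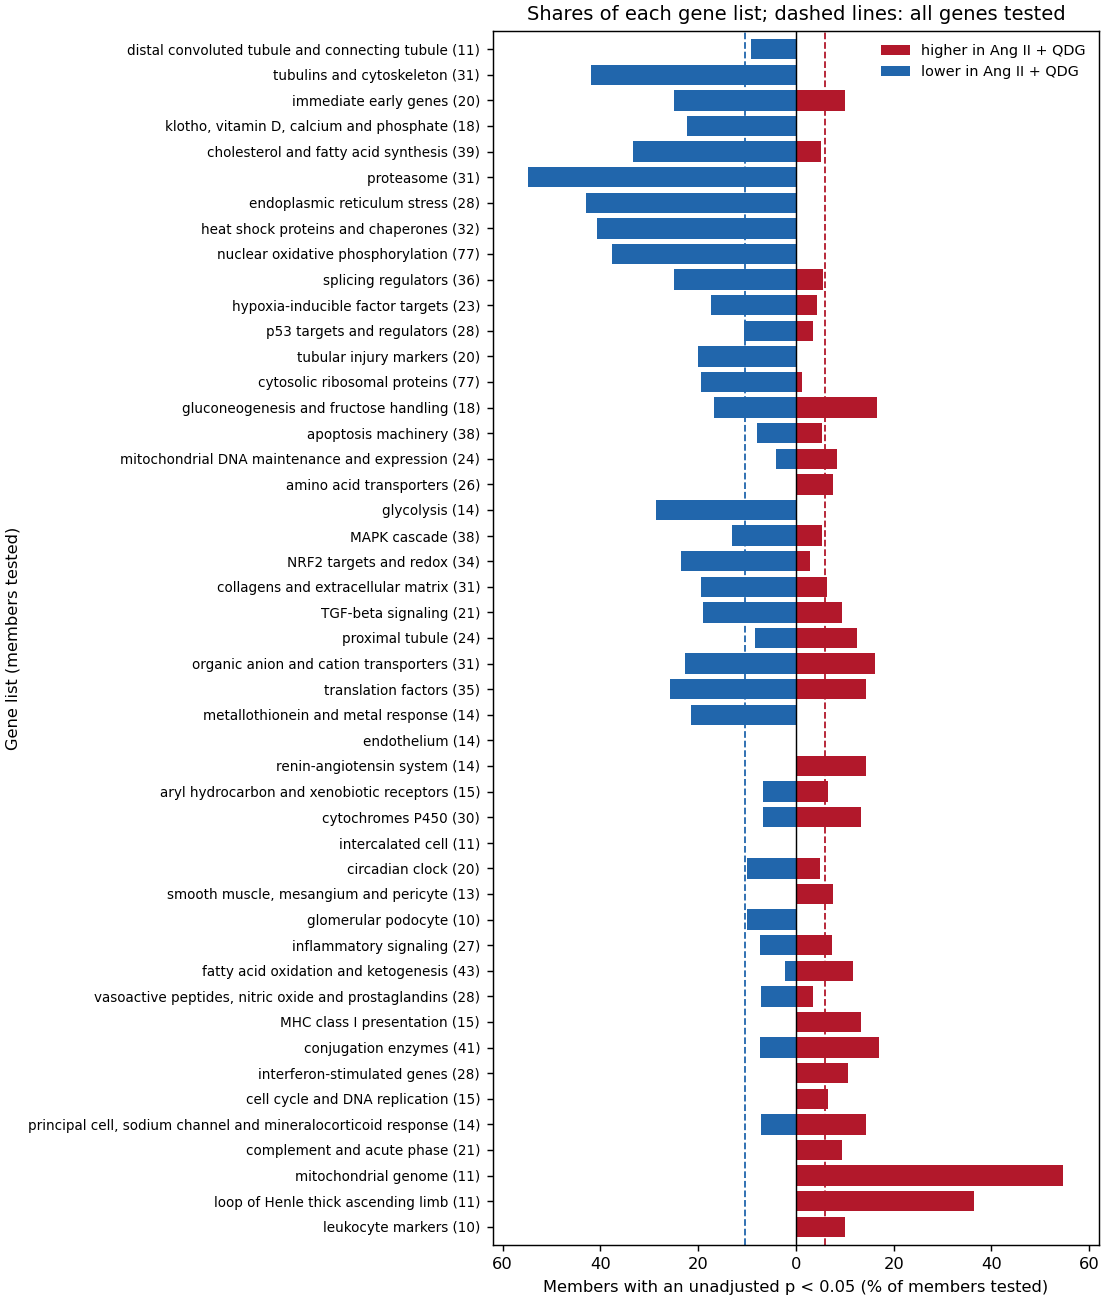
Share of the tested members of each gene list with an unadjusted p under 0.05 (horizontal axis, percent), to the right in red for higher and to the left in blue for lower in Ang II + QDG, for lists with at least 10 members tested (vertical axis, ordered by median log2 fold change). Dashed lines mark all genes tested, 6.01% higher and 10.4% lower. The proteasome reaches furthest to the left and the mitochondrial genome furthest to the right.

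The calls that held under every alternative in which the gene was tested were 27 lower and 2 higher genes, members of the lists above among them. Of these, 4 that do not code for proteins were not in the fit of protein-coding genes alone. Those described next were chosen after their values were seen. They include Irx3, a homeobox gene of nephron segments, with 34.8, 28.3, 30.9, 27.9 and 29.2 FPKM in Ang II and 17.1, 17.2, 20.5, 17.9 and 20.1 in Ang II + QDG (log2 fold change −0.67, adjusted p = 0.00265, limma). Dusp3, a dual-specificity phosphatase, had 15 to 21.4 FPKM in Ang II and a narrow 10.7 to 11.1 in Ang II + QDG (−0.66), below the Control range of 14.6 to 17.1. Ybx1, a cold shock protein that binds mRNA, fell from 595 ± 63.6 to 403 ± 50.6 FPKM (SD, n = 5), and Ran, the GTPase of nuclear transport, from 53.2 to 42.2 on average (−0.33). Parp9 and the ribosomal protein pseudogene Gm12174, which is 1 of those 4, were the higher ones. Of the 31-base stretches in Gm12174, 79.6% occur in the far more abundant Rpl7, which had a log2 fold change of 0.12. Gm12174 itself rose by 0.65, while the sum of both had a log2 fold change of 0.13.

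Pseudogenes made up 23 of the 224 calls. Taking all called genes, 21 shared at least 50% of their 31-base stretches with another tested gene, 13 of them lower and 8 higher, and their values cannot be separated with confidence from those of the partner. Gm14303, one of the 12 largest decreases, shares every stretch with the ribosomal protein gene Rps29, and it fell by 0.99 while the sum of both had a log2 fold change of −0.27. Gm13772 and Gm10053 shared 96.0% and 91.4% with Cycs and fell by 0.48 and 0.53, close to Cycs itself. Tubb4b-ps1 shared 50% with Tubb4b and fell by 0.52.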

How the data were processed

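RNA from whole kidney of 15 mice was depleted of ribosomal RNA, per the labels, and sequenced in pairs on an Illumina instrument. The study's methods also name a poly(A) isolation step, which the labels do not, so levels of RNA without a poly(A) tail may depend on a step that is not settled here. The authors deposited 1 FPKM value per transcript and mouse. The unit is inferred from the product of value, transcript length and 1 constant per mouse. This product was a whole number of reads, within 0.1, for 98.7% to 98.9% of values under 200 reads. The constant was chosen in each mouse to make that share highest, and it gave the mapped fragments stated above. The submitters' processing notes name mm10 and limma. The aligner, assembler and annotation are not given in the sources used here.

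Ensembl transcripts in all 15 files (28863 with a symbol in GENCODE release M21, GRCm38) were summed per gene. The 11141 assembled transcripts without a gene name, which held 11.3% to 11.7% of the shared FPKM in Ang II mice and 9.68% to 11.2% in Ang II + QDG mice, without overlap, were left out. The bearing of this share on the results was not tested. Genes with a sum of at least 1 in at least 5 mice were tested on log2(FPKM + 1) with limma 3.58.1 (R 4.3.3) in 1 model of 15 mice, 12 residual degrees of freedom and a trend, adjusted by Benjamini-Hochberg over 12359 genes. The pseudocount of 1 understates the change of low genes. Tests are two-sided and the procedure was tested on simulated data. Precision rests on 5 mice a group.

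The comparison and 49 gene lists were chosen with earlier results of these data known. Named genes are the 12 largest called changes in each direction with a mean of at least 1 FPKM, up to 3 members per list with the smallest p and 2 with the highest level, and 7 genes of the study. Some further genes are not reported here. Other names, among them Dtx3l, Irx3, Dusp3, Ybx1, Ran and some list members, were chosen after their values were seen. The alternatives were the pseudocount, filter, scaling, trend, sample set, transcript set, gene type and leaving out each mouse. The Control group shares no mouse with the comparison but enters its estimate of spread.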

Additional observations from a re-analysis of the deposited data

Results flagged for a closer look

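Values of the 24 largest called changes that lay far from the other mice of their group are given here. Other named genes, such as Cdkn1a and Lyz2, were not examined in this way. They were found among 48 groups of 5 mice examined, of which chance marks about 1 in 20. B3gnt2 had 20.6 FPKM in Ang II + QDG mouse 5 and 0.880 to 1.41 in the other 4, and in the same mouse the overlapping Gm28048 had 0.0156 FPKM against 19.9 to 23.1. Anp32e had 14.1 FPKM in Ang II + QDG mouse 2 against 6.18 to 8.47 in the others. Gm14303 had 14.1 FPKM in Ang II mouse 4 against 24.5 to 27.6, and 18.8 in Ang II + QDG mouse 1 against 8.52 to 11.0. Nudt19 had 885 FPKM in Ang II mouse 3 against 339 to 439.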

How the results depend on the processing

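The counts of genes at the adjusted threshold, 159 lower and 65 higher, moved most with the mice in the fit. With the 10 mice of the compared groups alone they were 56 and 12, and with the same 10 mice and the transcripts listed in all of their files 54 and 11. Quantile normalization gave 97 lower and median scaling 99. Leaving out 1 mouse gave 46 to 202 lower and 7 to 62 higher genes, lowest without Ang II mouse 2 (46 and 7). Moves of over 1.5 times also came without Ang II mouse 5 (56 and 9) and Ang II + QDG mice 2 (48 and 9), 3 (61 and 20), 4 (73 and 14) and 5 (71 and 10), and for higher genes without Ang II mouse 3 (30) and Control mouse 3 (40). At a fold of 2 with an unadjusted p under 0.05, the pseudocount of 0.1 gave 117 lower and 82 higher, and leaving out genes with a switching transcript, added after the data were seen, 21 and 19. All 25 called genes followed singly kept their direction in all 609 values computed, but 209 of these were past the threshold no longer, and 4 genes lost no call (Tnfrsf12a, Idi1, Parp9 and Cycs). Of the genes not called, 2 changed sign when 1 mouse was left out. Ren1 ranged from −0.31 to 0.026, and was above 0 without Ang II + QDG mouse 1 (0.019) or 2 (0.026). Casp9 ranged from −0.29 to 0.12, the latter without Ang II + QDG mouse 3. The causes were not tested. No paired analysis was possible because the groups held different mice. The mouse numbers used here follow the order in which the mice are listed and pair none of them.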
